A study of Rattus norvegicus with 12 samples.

Results

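Liver expression was described for 10 genes of mitochondrial fatty acid oxidation: Cpt1a, Cpt2, Slc25a20, Acadvl, Acadl, Acadm, Acads, Hadha, Hadhb and Decr1. The genes were chosen by name, with earlier results of these data known, as were the lists of further genes below. Every probe set that the platform annotation assigned to one of these symbols alone was taken. This gave 13 of the 31042 probe sets that were not controls and 10 of the 14217 genes named on the array. Cpt1a had 2 probe sets, Hadha had 3 and the other 8 genes had 1 each. All 10 genes entered the tests. Of the 13 probe sets, 11 had a mean signal over the arrays at or above 19.67, the median of all probe sets and the minimum for a test. The other 2 were dim Hadha probe sets, one with signals of 9.5 to 26.2 and one with signals of 0.4 to 13.3 over the 12 arrays.

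RNA of whole liver from 12 rats was measured on Affymetrix 1-colour arrays, 1 array per rat and 3 rats in each of 4 groups. In Sprague Dawley rats, germ-free animals (numbered 1, 3 and 4 in the labels) were set against conventional ones (6, 7 and 8), which carry a normal microbial flora. In Han Wistar rats, animals dosed with antibiotic (13, 14 and 15) were set against untreated controls (1, 2 and 3). The antibiotic was a mixture of streptomycin and penicillin, taken in the drinking water for 8 days, and the labels give 4 mg/ml and 2 mg/ml without settling whether this was before or after a dilution of the stock. The labels give no age, sex, diet, fasting state or hour of tissue collection, and groups that differed in one of them could not be separated from groups that differed in microbial status or dosing. Strain and experiment cannot be told apart either, so each treated group was compared with the control of its own strain. Nothing in the labels says more of the animals than their numbers, and the p-values measure the spread between these rats.

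Fatty acids are broken down in the mitochondrial matrix, which long-chain acyl groups reach through the carnitine shuttle. Carnitine palmitoyltransferase 1 (Cpt1a in liver) joins them to carnitine on the outer membrane, the carrier Slc25a20 exchanges acylcarnitine for free carnitine across the inner membrane, and Cpt2 returns the acyl group to coenzyme A inside. Each turn of the spiral begins with an acyl-CoA dehydrogenase, chosen by chain length, and the trifunctional protein of Hadha and Hadhb completes the turn for long chains. Unsaturated fatty acids also need auxiliary enzymes such as the dienoyl-CoA reductase Decr1. In liver much of the resulting acetyl-CoA becomes ketone bodies, and many genes of the pathway are targets of the nuclear receptor PPAR-alpha, most active in fasting.

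The tissue label was borne out by its markers: the 7 hepatocyte markers on the array were above the signal minimum, with Tat, at 650.1 or more on any array, the dimmest of them. Arrays within a group correlated at 0.977 to 0.987 across genes. Of 9300 genes tested with limma, 1226 passed an adjusted p under 0.05 between germ-free and conventional livers (13.2%), 599 higher and 627 lower, and 2 passed in antibiotic-dosed livers (0.0215%). Centring each array on its median moved the germ-free split to 379 higher and 1122 lower. Without germ-free animal 3 the germ-free count was 654. The signal at the 3' end of beta-actin over that at its 5' end, a ratio that is higher where RNA is degraded, averaged 4.39 ± 0.762 for germ-free livers and 5.37 ± 0.839 for conventional ones (SD; exact permutation test, two-sided p = 0.2, where 3 against 3 animals allow no p below 0.1). In antibiotic-dosed and control livers the ratio averaged 2.73 ± 0.131 and 2.55 ± 0.123 (p = 0.2 by the same exact test).

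In germ-free livers the carnitine shuttle was lower at all 3 of its steps, whereas the 4 acyl-CoA dehydrogenases did not pass the test. Of the 10 genes, 4 fell (Cpt2, Slc25a20, Cpt1a and Hadhb), 0 rose and 6 did not pass, against 13.2% of all genes tested that passed, 6.44% higher and 6.74% lower. The log2 fold change, germ-free minus conventional, was below 0 for 9 of the 10 genes (all but Acadm, whose sign depended on the scaling), with a median of -0.22 and a range of -1.15 to 0.02. Over all genes tested 46.3% were below 0, with a median of 0.03. Centring each array on its median moved the median of all genes by -0.11, and by construction it moves every gene of an array alike. The median of the 10 minus that of all genes was -0.25 with the values as deposited and -0.15 after quantile normalization. All fold changes are on a scale of log2(signal + 16), which understates the change of dim genes.

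**Figure D1:**
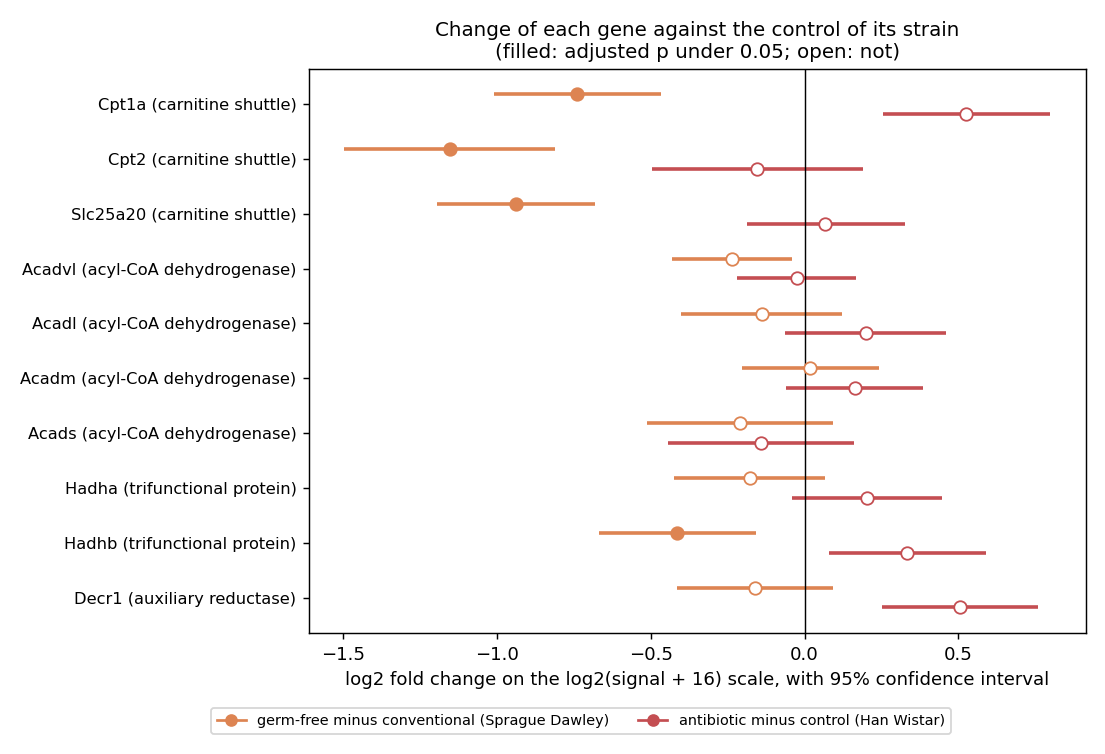
Log2 fold change of each of the 10 genes (horizontal axis, on the scale of log2(signal + 16)) against the control of its strain, with the 95% confidence interval from limma; filled points passed an adjusted p under 0.05. The intervals of Cpt1a, Cpt2 and Slc25a20 in germ-free livers lie wholly below -0.46, and no point of the antibiotic comparison is filled.

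Cpt2, the inner carnitine palmitoyltransferase, had the lowest fold change of the 10. Its signal was 1122, 664 and 784 in germ-free animals 1, 3 and 4 and 1881, 1645 and 2145 in conventional animals 6, 7 and 8. The groups did not overlap, and the highest germ-free value was that of animal 1. Group means were 857 ± 237 and 1890.3 ± 249.7 (SD, n = 3), a log2 fold change of -1.15 ± 0.16 (SE, adjusted p = 0.000408 by limma).

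For Slc25a20, the carnitine-acylcarnitine carrier, the germ-free signals were 630.3, 472 and 618 and the conventional ones 1052, 1034 and 1235. All germ-free values lay far below all conventional values, and animal 3 was the lowest. Means of 573 ± 88.4 and 1107 ± 111 (SD, n = 3) gave a log2 fold change of -0.94 ± 0.12 (adjusted p = 0.000233 by limma).

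Cpt1a, whose product is the regulated entry point of the pathway and is inhibited by malonyl-CoA, was measured by 2 probe sets. By the brighter one, germ-free signals were 2688, 2118 and 2581 and conventional signals 4397, 3824 and 4086, again without overlap. The log2 fold change was -0.74 ± 0.13 (adjusted p = 0.00192 by limma), with means of 2462 ± 303 and 4102 ± 287 (SD, n = 3). By the other, germ-free signals were 874, 748 and 1013 and conventional signals 1339.6, 1122 and 1399. The direction was the same there and the groups did not overlap, with a log2 fold change of -0.55 ± 0.17 (adjusted p = 0.0479 by limma over every passing probe set). The calls of Cpt2, Slc25a20 and Cpt1a held under all 24 alternative settings run, each left-out animal among them. For Cpt1a these used the brighter probe set, except for the setting that averaged its probe sets. The dimmer Cpt1a probe set was not put through these settings alone.

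Promoter sequences of the genes were searched for repeats of the hexamer AGGTCA, which PPAR-alpha, paired with Rxra, is known to bind. Whether such letters have a part in the changes was not tested. Windows of 300 bases, from 250 before to 50 after a start site, came from RefSeq (assembly GRCr8), where 8 of the 10 genes matched an entry (not Acadl and Decr1). Both strands were searched for the direct repeat of AGGTCA, any 1 base, and AGGTCA again, with mismatches counted over the hexamers. The fewest mismatches were 1 in Acadvl, 2 in Slc25a20, 3 in Hadha and Hadhb, 4 in Cpt1a, Cpt2 and Acads and 5 in Acadm. Among all 33465 windows of the table, 0.439% held a match with at most 1 mismatch, 3.774% with at most 2 and 24.907% with at most 3. The start sites of Cpt1a and Cpt2 in that table lie 2279 and 529 bases inside the gene bodies of the gene table, so those windows may not be the promoters used in liver. Those of Acadvl, Acads and Hadhb lie 81, 74 and 57 bases inside. The stretch before the start of Slc25a20 is shown because this gene fell and its 250 upstream bases, chr8:118243323-118243572 on the forward strand, end just before the annotated start of the gene:
Slc25a20: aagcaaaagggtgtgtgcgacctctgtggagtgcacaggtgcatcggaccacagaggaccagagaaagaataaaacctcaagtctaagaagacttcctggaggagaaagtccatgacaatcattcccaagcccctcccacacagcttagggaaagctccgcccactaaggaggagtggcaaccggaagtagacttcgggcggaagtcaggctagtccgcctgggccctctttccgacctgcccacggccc

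The closest matches to the repeat in Acadvl and Slc25a20, with 1 and 2 mismatches, are set side by side as the nearest among the windows of these genes. That of Acadvl, on the reverse strand at chr10:55236710-55236722, begins 17 bases before the start site of its window. That start site lies 81 bases inside the gene body, so the Acadvl match is itself within the annotated gene. The match of Slc25a20, at chr8:118243588-118243600, begins 15 bases after its start site. Capitals mark the whole match.
Acadvl closest match: AGGTCAGTGGTCA
Slc25a20 closest match: AGGTGAAAGGTCG

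The Acadvl window held the hexamer AGGTCA at 2 places, of which 1 is the start of this match, whereas 16.178% of all windows held at least 1 and 1.808% at least 2. These are matches of letters, and no binding was measured.

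The 4 acyl-CoA dehydrogenases, which take the first step of each turn, did not pass in germ-free livers. Their log2 fold changes ran from -0.24 to 0.02, with a median of -0.17. Acadvl, the dehydrogenase for very long chains, had signals of 1092, 955 and 1072 in germ-free and 1172, 1197 and 1309 in conventional livers. These groups did not overlap, which was so in the lower direction for 14.5% of all genes (15.4% in the higher direction, 29.9% in all) and for 5 of the 10 described here (Cpt1a, Cpt2, Slc25a20, Acadvl and Hadhb). The Acadvl difference was small, at -0.24 ± 0.09 on the log2 scale (95% interval -0.43 to -0.04, adjusted p = 0.102 by limma). It passed when each array was centred on its median (-0.34, adjusted p = 0.0367).

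Acadl, for long chains, had germ-free signals of 2691, 2828 and 3570.4 and conventional signals of 3525, 3093 and 3331, and animal 4 exceeded every conventional animal. Its log2 fold change was -0.14 ± 0.12 (interval -0.40 to 0.12, adjusted p = 0.494 by limma). Acadm, for medium chains, ran from 3996 to 4543 in germ-free and from 4023 to 4582 in conventional livers, nearly the same range. The value of 0.02 ± 0.10 for Acadm (interval -0.20 to 0.24, adjusted p = 0.931 by limma) changed sign under quantile normalization (-0.04), under median centring (-0.09), without germ-free animal 4 (-0.02) and without conventional animal 6 (-0.02). Acads, for short chains, had germ-free signals of 632, 429 and 488 against 672, 565 and 547. Animal 1 lay within the conventional range and animals 3 and 4 below it, giving -0.21 ± 0.14 (interval -0.51 to 0.09, adjusted p = 0.358 by limma). The largest decrease that these intervals allow was 0.51 on the log2 scale, for Acads, and the intervals of Cpt2 and Slc25a20 lay wholly below that. The Cpt1a interval overlapped that of Acads, at -1.01 to -0.47 by the brighter probe set and -0.91 to -0.19 by the other.

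The trifunctional protein has alpha subunits from Hadha, which carry the hydratase and hydroxyacyl-CoA dehydrogenase steps, and beta subunits from Hadhb, which carry the thiolase. The genes lie head to head on chromosome 6, with 243 bases between their gene bodies, and their 300-base windows share 200 bases. That interval, chr6:31907558-31907800 on the forward strand in RefSeq GRCr8, is shown because the same sequence lies upstream of a gene that fell and of one that did not pass. Hadhb begins to its left and Hadha to its right, and capitals mark the letters closest to the direct repeat of AGGTCA, with 3 mismatches:
Hadhb to Hadha: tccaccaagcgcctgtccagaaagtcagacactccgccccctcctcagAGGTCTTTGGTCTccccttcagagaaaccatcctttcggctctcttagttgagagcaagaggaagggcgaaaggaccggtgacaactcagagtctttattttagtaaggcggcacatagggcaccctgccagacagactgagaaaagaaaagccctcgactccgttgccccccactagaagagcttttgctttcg

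Hadhb had signals of 1915, 1801 and 2164 in germ-free and 2888, 2294 and 2674 in conventional livers. Every germ-free value was below every conventional one, although germ-free animal 4 and conventional animal 7 lay close. The log2 fold change was -0.41 ± 0.12 (adjusted p = 0.0355 by limma), with means of 1960.0 ± 186 and 2618 ± 301 (SD, n = 3). This call was lost in 8 of 24 alternatives, with adjusted p between 0.0558 and 0.142: without conventional animal 6 (0.109) or 8 (0.0865), without germ-free animal 1 (0.0734) or 3 (0.142), with no signal minimum, in a fit on the 6 Sprague Dawley arrays, without a variance trend, and with the actin ratio as a covariate (0.0849). In the fit with the covariate its value was -0.47.

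For Hadha, by its bright probe set, the signals were 1929.7, 1508 and 1784 in germ-free and 1998, 1879 and 2010.4 in conventional livers. Animal 1 lay inside the conventional range, and the difference of -0.18 ± 0.11 (interval -0.42 to 0.07) did not pass (adjusted p = 0.33 by limma). The difference between the Hadha and Hadhb changes was not tested. Decr1, the auxiliary reductase for fatty acids with double bonds at even positions, had signals of 3049, 2736 and 3358 against 3582, 3127 and 3495. Only germ-free animals 1 and 3 lay below all conventional animals, and its log2 fold change was -0.16 ± 0.12 (interval -0.41 to 0.09, adjusted p = 0.405 by limma).

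**Figure D2:**
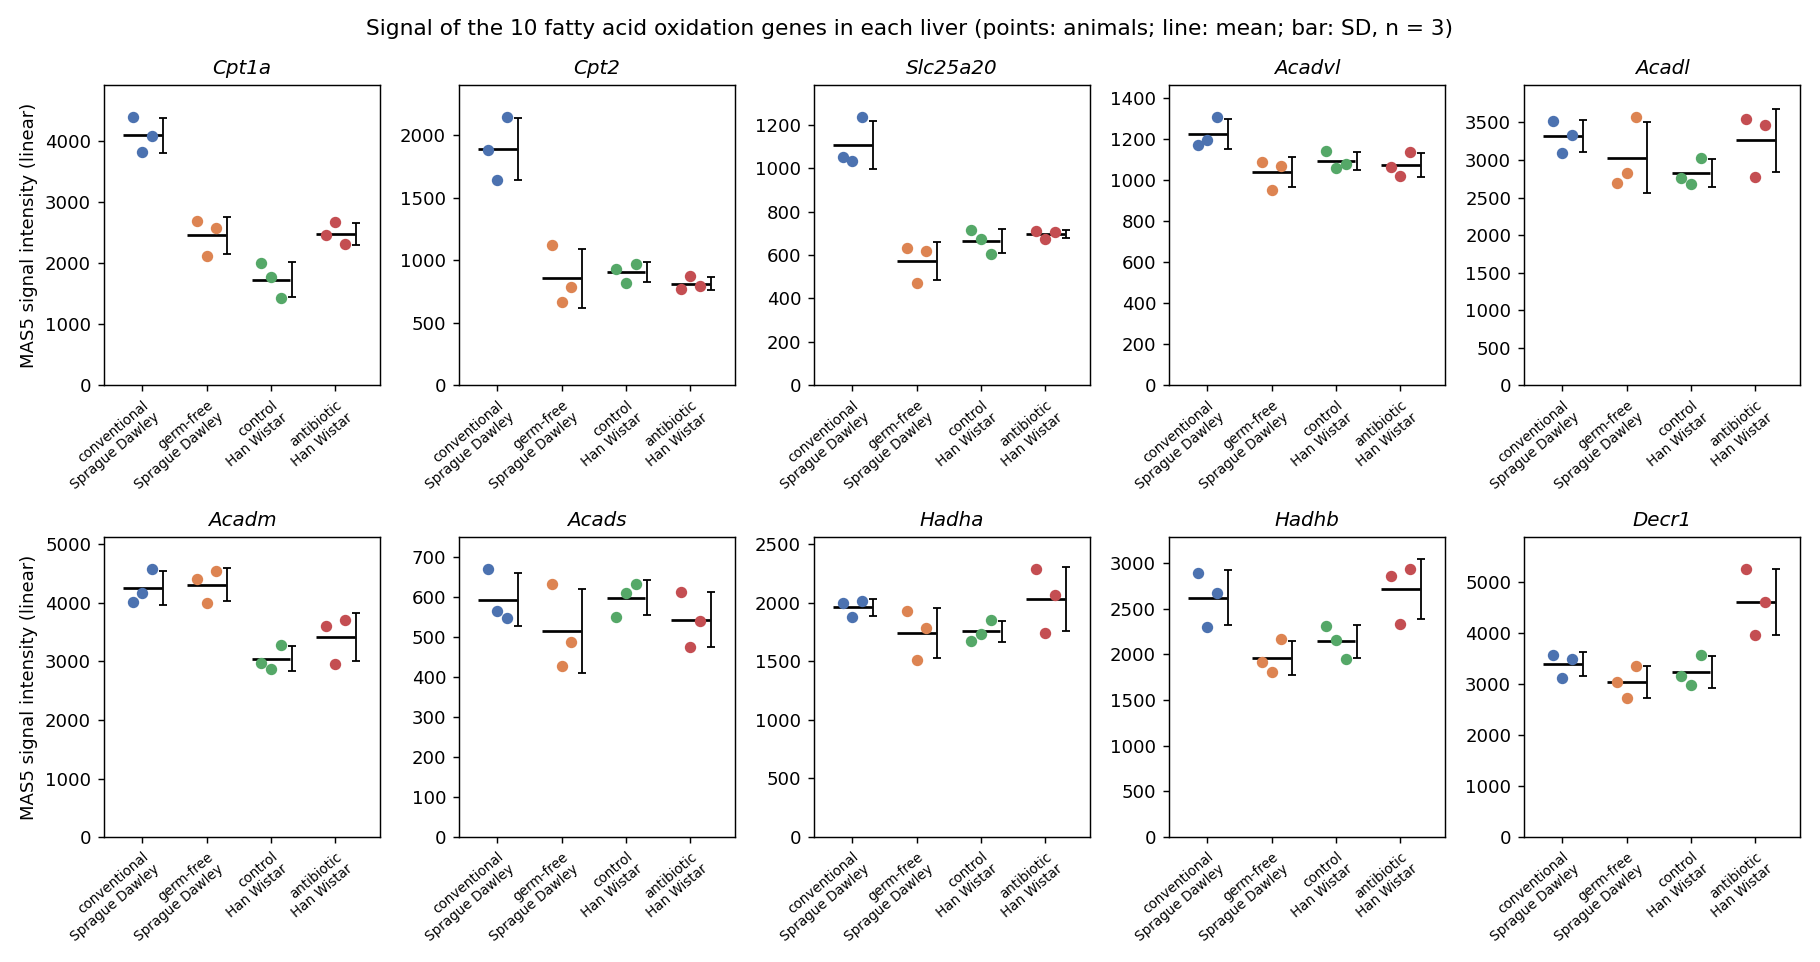
Signal intensity (vertical axis, linear, from 0) of the 10 genes in each of the 12 livers, by the brightest probe set, with the mean as a line and the SD as a bar for the 3 animals of a group. Cpt1a, Cpt2 and Slc25a20 are highest in the 3 conventional animals, and Decr1 in the 3 antibiotic-dosed animals.

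Across the 4 groups, conventional Sprague Dawley livers had the highest signal, without overlap with the next group, for Cpt1a, Cpt2, Slc25a20 and Acadvl. The mean signal of Cpt1a was 4102 in conventional livers, 2486 in antibiotic-dosed, 2462 in germ-free and 1735 in control livers. The antibiotic-dosed and germ-free values of Cpt1a overlapped, and the control values lay below both. For Cpt2 the remaining 3 groups had means of 907 (control), 857 (germ-free) and 813 (antibiotic-dosed), and the animals of neighbouring groups overlapped. The same held for Slc25a20, with means of 697 in antibiotic-dosed, 666 in control and 573 in germ-free livers. Germ-free livers had the lowest mean of the 4 groups for 6 genes (Slc25a20, Acadvl, Acads, Hadha, Hadhb and Decr1), and the next group overlapped them in each case. For Acadl, Acads and Hadhb, every neighbouring pair in the order overlapped. Acadm was higher in both Sprague Dawley groups (means 4314 and 4258) than in both Han Wistar groups (3423 and 3046), without overlap between strains. These orders set arrays of separate experiments side by side and were not tested. How often such orders occur among all genes was not counted.

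Single animals were low over many of the genes. Germ-free animal 3 had the lowest germ-free signal for 9 of the 10 genes, against 31.3% of all genes tested. Conventional animal 7 was the lowest of its group for 7 (26.6% of all genes), and antibiotic-dosed animal 14 for 8 (31.3% of all genes). Germ-free animal 3 had the lowest actin ratio of its group (3.62, against 5.14 and 4.41), and conventional animal 7 the highest (6.17, against 4.50 and 5.43). The part of RNA quality in these values was not tested beyond the fits without each animal and with the ratio as a covariate. Against the conventional mean, Cpt2 stood at -0.74, -1.48 and -1.24 on the log2 scale in germ-free animals 1, 3 and 4, as the map of deviations by animal shows. Slc25a20 stood at -0.79, -1.20 and -0.82 in these animals and Cpt1a at -0.60, -0.95 and -0.66. All 3 shuttle genes were therefore lower in each germ-free animal, and Acadm lay between -0.09 and 0.10 (0.095) of the conventional mean in all of them.

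**Figure D3:**
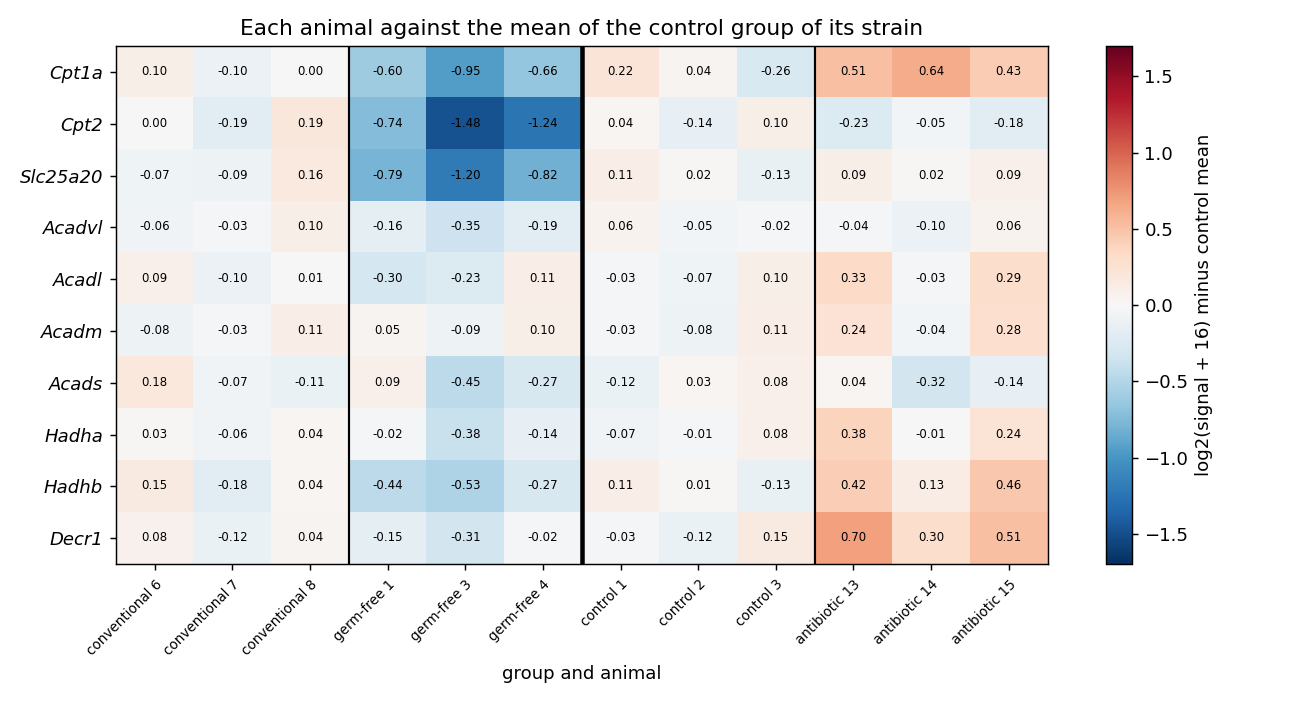
Deviation of each animal (columns, by group) from the mean of the control group of its strain, for the 10 genes (rows), on the scale of log2(signal + 16); blue is lower and red higher, and the number in each cell is the deviation. The germ-free columns are darkest blue in the rows of Cpt1a, Cpt2 and Slc25a20, with animal 3 lowest in each, and the antibiotic columns are red for Cpt1a and Decr1.

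Further genes of the pathway fell in germ-free livers as well. Of 27 listed genes that were tested, 12 fell, 0 rose and 15 did not pass, against 6.74% of all genes in the lower direction. The median log2 fold change was -0.36, and 19 of the 27 values were below 0. With the actin ratio as a covariate, 5 of the 27 and 623 of all genes passed, and the 7 that lost their call kept the sign.

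Among 11 genes of fatty acid entry and activation, 3 fell and 0 rose, where 6.74% of all genes were lower and 6.44% higher. All 3 handle carnitine. Crat, the carnitine acetyltransferase, had signals of 143, 71.4 and 72.4 in germ-free and 371, 366 and 364 in conventional livers, at a log2 fold change of -1.84 ± 0.18 (adjusted p = 4.40e-05 by limma). The conventional animals lay within a few units of each other, and germ-free animal 1 was higher than 3 and 4. Slc22a5, the carnitine importer of the plasma membrane, had signals of 162, 79.5 and 118 against 386, 327 and 420.2 (-1.57 ± 0.19, adjusted p = 0.000163 by limma). Cpt1b, the form of carnitine palmitoyltransferase 1 typical of muscle, was dim, with 27.1, 18.7 and 25.8 against 58.4, 51.6 and 54.5. Its log2 value of -0.83 ± 0.14 (adjusted p = 0.00121 by limma) ran from -1.18 with an offset of 1 to -0.44 with 64, so its size is not settled. The groups did not overlap for any of these 3 genes, which was so in the lower direction for 14.5% of all genes. The calls of the 3 held in every alternative in which they were tested. The 6 muscle markers (Ckm, Acta1, Myh7, Tnnt2, Tnni3 and Mb) all had a mean signal below the minimum, with sums of 11.6 to 31.4 in germ-free and 16.1 to 26.8 in conventional livers. The acyl-CoA synthetases Acsl1, Acsl3, Acsl4 and Acsl5, the transporters Slc27a2, Slc27a4 and Cd36 and the binding protein Fabp1 did not pass. Acsl1, the main synthetase of liver, stood at 0.03 ± 0.10 and Fabp1 at 0.13 ± 0.11, both close to 0.

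Of 14 further enzymes of the spiral and of electron transfer, 8 fell, 0 rose and 6 did not pass, where 6.74% of all genes were lower and 6.44% higher. Acad11, a dehydrogenase of long chains, had the lowest value, with signals of 724, 615 and 773 in germ-free and 1954, 1621 and 1771 in conventional livers (-1.32 ± 0.14, adjusted p = 6.54e-05 by limma). Of the enzymes that move double bonds, Ech1 had 2617, 1177 and 1936 against 3809.6, 3159 and 3709.8 (-0.96 ± 0.21), and Eci1 stood at -0.78 ± 0.17 and Eci2 at -0.53 ± 0.11. Germ-free animal 3 was the lowest for each of these. The thiolase gene Acaa2 stood at -0.64 ± 0.16, the short-chain dehydrogenase gene Hsd17b10 at -0.58 ± 0.11, and Etfa and Etfb, which pass electrons from the acyl-CoA dehydrogenases to the respiratory chain, at -0.36 ± 0.10 and -0.41 ± 0.10. Without germ-free animal 3 the calls of Acaa2 (adjusted p = 0.0942), Etfa (0.113) and Etfb (0.0718) were lost in limma's fit. Etfa also lost its call without conventional animal 7 (0.0667) or 8 (0.0908) and Acaa2 without conventional animal 6 (0.0646). With the actin ratio as a covariate, Acad11 kept its call and the other 7 lost it, with adjusted p of 0.0538 to 0.195. Their values in that fit were all still below 0, at -0.72 for Ech1, -0.66 for Eci1, -0.59 for Acaa2, -0.49 for Eci2, -0.41 for Hsd17b10, -0.34 for Etfb and -0.27 for Etfa. Etfdh, which takes the electrons onward, had a value of -0.17, Hadh of 0.08 and Echs1 of 0.16, and none of them passed. Of the ketone body genes, Acat1, a thiolase, fell from 1548 ± 249 to 957 ± 106 (SD, n = 3), a log2 fold change of -0.68 ± 0.14 (adjusted p = 0.00723 by limma), and Bdh1 stood at -0.04 ± 0.18 (0.909).

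**Figure D4:**
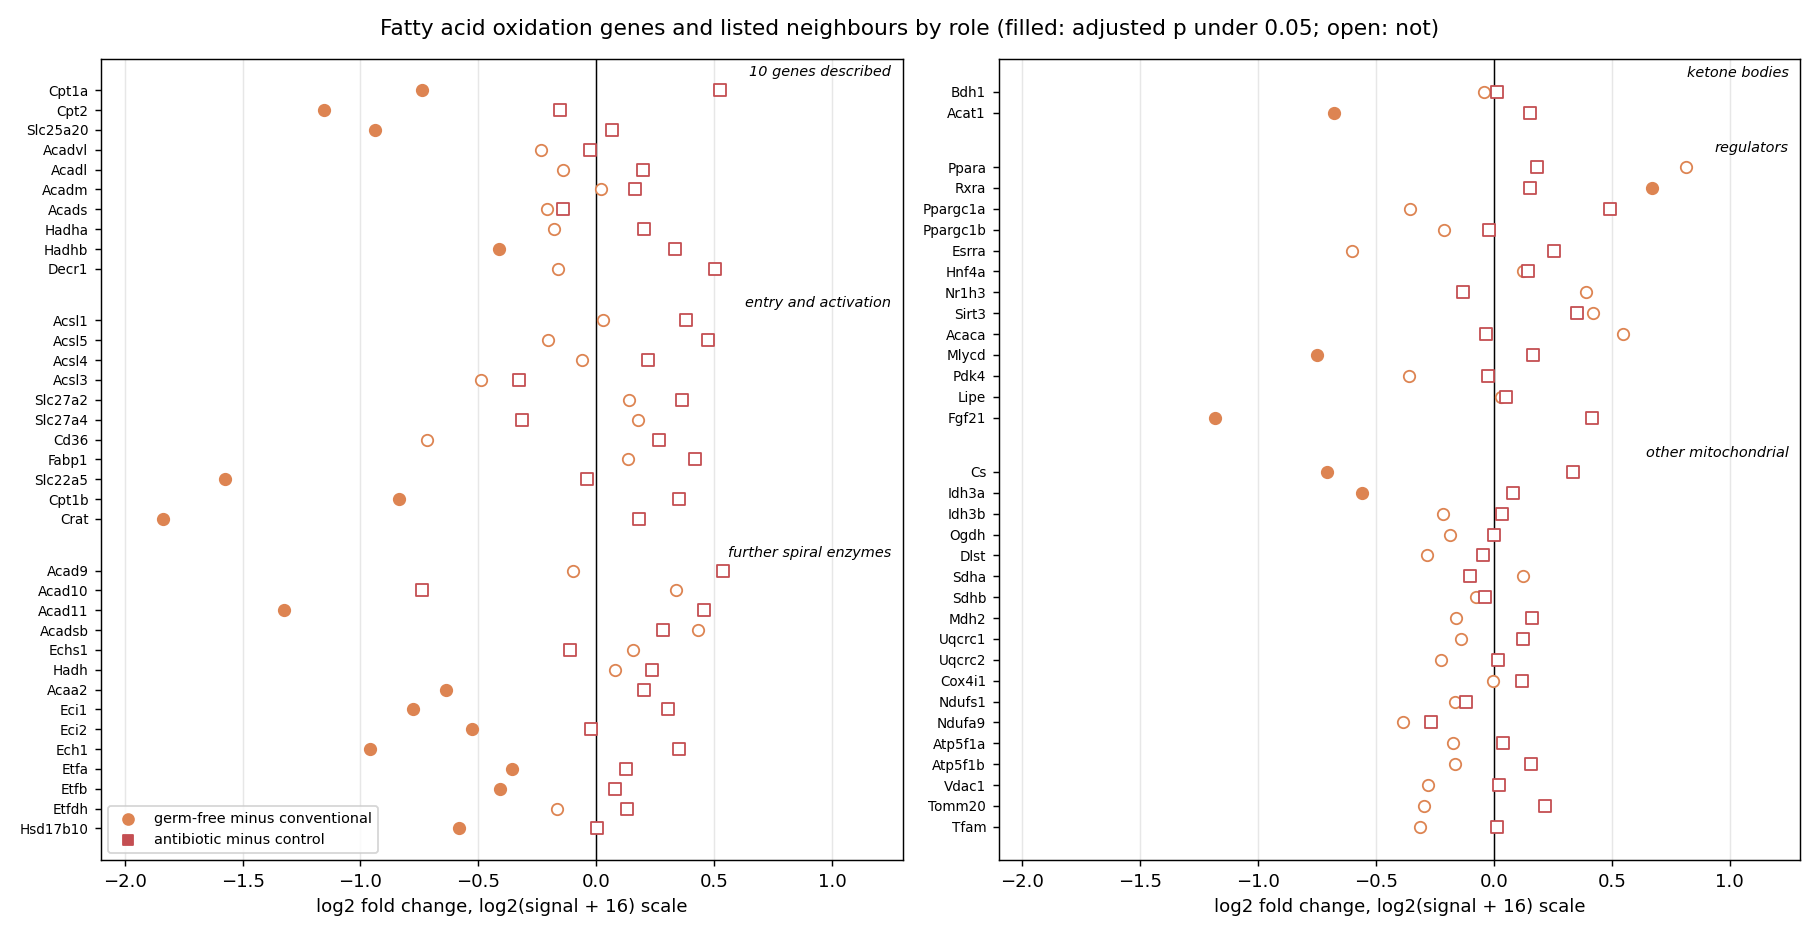
Log2 fold change (horizontal axes, log2(signal + 16) scale) of the 10 genes and of the listed genes around them, grouped by role, in germ-free (circles) and antibiotic-dosed livers (squares); filled symbols passed an adjusted p under 0.05. Filled circles lie to the left of 0 except that of Rxra, with Crat, Slc22a5 and Acad11 farthest left, and no square is filled.

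Regulators of the pathway passed in both directions. Of 14 listed, Acacb lay under the signal minimum (mean 8.85) and 13 were tested; 1 rose, 2 fell and 10 did not pass in germ-free livers, where 6.44% of all genes were higher and 6.74% lower. Mlycd, the malonyl-CoA decarboxylase that removes the inhibitor of carnitine palmitoyltransferase 1, had signals of 588, 409.6 and 478 in germ-free and 869.7, 825 and 797 in conventional livers (-0.75 ± 0.12, adjusted p = 0.0011 by limma). These groups lay well apart, and the call held in every alternative run. Fgf21, a hormone of the fasting liver, had signals of 21.5, 14.9 and 47.5 against 137, 60.6 and 57.4. Conventional animal 6 was high and germ-free animals 1 and 3 lay near the signal minimum; the log2 value of -1.18 ± 0.28 (adjusted p = 0.0134 by limma) lost its call without germ-free animal 3 (0.0703). Its size ran from -0.67 to -1.61 over the alternatives.

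Rxra, the partner of PPAR-alpha, rose, with signals of 96.6, 127 and 138 against 51.7, 61.8 and 102. Conventional animal 8 overlapped the germ-free range, and the call (0.67 ± 0.19, adjusted p = 0.0314 by limma) was lost in 9 of 24 alternatives, with adjusted p of 0.0507 to 0.137. These included leaving out germ-free animal 3 (0.108) or 4 (0.109) and conventional animal 6 (0.106) or 7 (0.0969). Ppara itself was dim, at 40.3, 25.1 and 39.3 in germ-free and 20.9, 3.20 and 17.3 in conventional livers. The germ-free signals were all above the conventional ones, but the difference of 0.81 ± 0.26 did not pass (adjusted p = 0.0569 by limma). The coactivators Ppargc1a (-0.36) and Ppargc1b (-0.21), the receptors Esrra (-0.60), Hnf4a (0.12) and Nr1h3 (0.39), the deacetylase Sirt3 (0.42), the acetyl-CoA carboxylase Acaca (0.55), the kinase Pdk4 (-0.36) and the lipase Lipe (0.03) did not pass.

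Mitochondrial genes outside the pathway were mostly below 0. Of 21 listed genes of the citrate cycle, respiratory chain and organelle upkeep, 18 were tested; 2 fell, 0 rose and 16 did not pass, where 6.74% of all genes passed in the lower direction. The median was -0.20, near that of the 10 genes (-0.22), and 17 of 18 values were below 0. Citrate synthase, Cs, had signals of 382, 252 and 261 in germ-free and 605, 444 and 438 in conventional livers (-0.71 ± 0.18, adjusted p = 0.0195 by limma), a call that did not hold when conventional animal 6 (0.0715) or germ-free animal 3 (0.0918) or 4 (0.073) was left out, or with the actin covariate (0.0974). Idh3a stood at -0.56 ± 0.17 (adjusted p = 0.0464 by limma), and its call was lost in 10 of 23 alternatives, among them leaving out conventional animal 6 (0.154) or 8 (0.0813), germ-free animal 3 (0.135) or 4 (0.129), control animal 1 (0.0535) or 2 (0.0614) or antibiotic-dosed animal 14 (0.0577). No test compared the lists with each other.

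Markers of other cells moved beside these results. In bulk tissue, fewer cells of a type and less RNA per cell cannot be told apart. The summed signal of the 7 hepatocyte markers on the array was 46603 to 52780 in germ-free and 41951 to 46350 in conventional livers; 1 of the 7 rose (Tat) and 0 fell. For the 7 endothelial markers on the array, of 9 listed, the sums were 1325 to 1837 and 713 to 899, and 5 rose. Of all genes tested, 6.44% were higher and 6.74% lower. For 8 macrophage markers, of 10 listed, the sums were 1802 to 2447 and 2385 to 3462, and 1 fell (Clec4f, adjusted p = 0.0264 by limma). In these lists no marker had a mean signal below the minimum, whereas 1 of 7 lymphocyte markers (Ptprc) and 1 of 4 adipose markers (Cidec) reached it. None of the 9 stellate, 3 bile duct and 2 erythroid markers tested passed. The part of cell composition in the changes of the 10 genes was not tested.

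In antibiotic-dosed livers none of the 10 genes passed the test: 0 rose and 0 fell, where 2 of 9300 genes passed in all (0.0215%, both lower) and 969 had an unadjusted p under 0.05 (10.4%). Of the 10, 3 had an unadjusted p under 0.05, Cpt1a, Hadhb and Decr1, all with higher signal after dosing, against 5.63% of all genes in that direction and 4.78% in the lower one. The same 3 genes had groups that did not overlap, which was so in the higher direction for 9.19% of all genes and in the lower one for 9.12% (18.3% in all). The median log2 fold change, antibiotic minus control, was 0.18, with a range of -0.15 to 0.53. Over all genes it was 0.002, and 3 of the 10 values and 49.7% of all were below 0. Under quantile normalization the median of the 10 was 0.04.

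Cpt1a signals were 2000.1, 1774 and 1429.8 in control animals 1, 2 and 3 and 2458, 2679 and 2321 in antibiotic-dosed animals 13, 14 and 15 by the brighter probe set. Every dosed animal was above every control, at a log2 fold change of 0.53 ± 0.13 (95% interval 0.25 to 0.80, adjusted p = 0.176 by limma). The other probe set gave 901, 719 and 622 against 1332, 1299.6 and 912, or 0.65 ± 0.17 (adjusted p = 0.205 by limma over every passing probe set). Decr1 signals were 3160.3, 2977 and 3585 in controls and 5267, 3971 and 4619 in dosed animals. Dosed animal 13 was the highest of all 12 rats, and the means were 3241 ± 312 and 4619 ± 648 (SD, n = 3). The log2 fold change of 0.50 ± 0.12 (adjusted p = 0.173 by limma) became 0.26 under quantile normalization. Hadhb signals of 2312, 2157 and 1954 in controls stood against 2861, 2335 and 2934, with dosed animal 14 just above the highest control. That gave 0.33 ± 0.12 (adjusted p = 0.347 by limma) and 0.22 under quantile normalization.

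The groups overlapped for the other 2 shuttle genes. Cpt2 had 929, 817 and 974 in controls and 771, 874 and 794 in dosed animals (-0.15 ± 0.16, interval -0.49 to 0.19), and Slc25a20 had 717, 672 and 607 and 710, 674 and 708 (0.07 ± 0.12, interval -0.19 to 0.33). Both intervals include 0. The dehydrogenases stood at -0.03 ± 0.09 (Acadvl), 0.20 ± 0.12 (Acadl), 0.16 ± 0.10 (Acadm) and -0.14 ± 0.14 (Acads), and Hadha at 0.20 ± 0.11, each with an interval that includes 0. The sign of Acadvl turned without control animal 1 or antibiotic-dosed animal 14 and that of Acadm under quantile normalization. Dosed animal 14 was lower than 13 and 15 for each of these 5 genes and for Slc25a20, Hadhb and Decr1.

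Of the 27 other pathway genes tested, 0 rose and 0 fell after dosing, with a median of 0.20 and 6 values below 0. The groups did not overlap for 9 of the 27 with dosed animals higher, against 9.19% of all genes, and for 2 with dosed animals lower, against 9.12%. The 9 were Acad9 (0.54), Acsl5 (0.47), Acad11 (0.46), Fabp1 (0.42), Acsl1 (0.38), Ech1 (0.35), the dim Cpt1b (0.35), Acsl4 (0.22) and Etfa (0.13), with adjusted p of 0.187 to 0.706 by limma. The 2 were Echs1 (-0.11) and Acad10. Acad10 lay lower in each dosed animal (102, 75.6 and 89.1) than in any control (165, 119 and 199.7), at -0.74 ± 0.23 (adjusted p = 0.272 by limma). Crat (0.18), Slc22a5 (-0.04) and Mlycd (0.16) did not pass, and of 13 regulators 0 passed, with a median of 0.15. The summed hepatocyte markers were 27678 to 32888 in control and 35554 to 43574 in dosed livers, which did not overlap, and the medians of the hepatocyte and macrophage markers tested were 0.37 and 0.52. None of these markers passed, and their part in the values of the 10 genes was not tested. The 6 muscle markers summed to 60.7 to 132.3 in control and 22.9 to 31.7 in dosed livers.

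Whether the changes in germ-free and antibiotic-dosed livers differed was tested directly as the germ-free change minus the antibiotic change. The comparisons share no animals, but they differ in strain, in experiment and in the treatment. All 10 values were below 0 with the values as deposited and all animals, with a median of -0.52 against 0.02 over all genes, of which 48.1% were below 0. Of the 10 genes, 5 passed limma's test, all lower, against 5.94% of all genes, 3.25% lower and 2.69% higher. Over all genes 250 were higher and 302 lower, or 192 and 382 with each array centred on its median. The values were -1.26 ± 0.18 for Cpt1a (adjusted p = 0.00148), -1.005 ± 0.169 for Slc25a20 (0.00372), -1.001 ± 0.225 for Cpt2 (0.02), -0.75 ± 0.17 for Hadhb (0.02) and -0.66 ± 0.17 for Decr1 (0.0335), all by limma. The second Cpt1a probe set gave -1.19 ± 0.24 (adjusted p = 0.0114 by limma over every passing probe set). The germ-free and antibiotic values behind these differences were -1.15 and -0.15 for Cpt2, -0.94 and 0.07 for Slc25a20, and -0.16 and 0.50 for Decr1, so that Decr1 passed in the difference and in neither comparison alone.

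The Cpt1a and Slc25a20 differences passed in all 23 alternatives run. Cpt2 lost its call without control animal 2 (adjusted p = 0.0556 by limma) and with the actin covariate (0.108), and Hadhb without germ-free animal 3 (0.0599) or antibiotic-dosed animal 15 (0.0502). Decr1 lost its call in 10 alternatives, with adjusted p up to 0.0957: with no signal minimum, without a variance trend, with the actin covariate, and without germ-free animal 3, conventional animal 6 or 8, control animal 1 or 2, or antibiotic-dosed animal 13 or 15. Leaving out germ-free animal 3, control animal 2 or antibiotic-dosed animal 15 left 3 of the 10 genes past the test. Acadvl (-0.21), Acadl (-0.34), Acadm (-0.14), Acads (-0.07) and Hadha (-0.38) did not pass, with adjusted p from 0.188 to 0.887, and the sign turned for Acadm under quantile normalization (0.01) and for Acads with the actin covariate (0.029) and without germ-free animal 3 (0.051), conventional animal 6 (0.019) or antibiotic-dosed animal 13 (0.019). Of the 27 other pathway genes 9 passed, all lower, where 3.25% of all genes passed in that direction. The median of the 27 was -0.49, and with the actin covariate 4 of them passed. Crat (-2.02 ± 0.26), Acad11 (-1.78 ± 0.20), Slc22a5 (-1.53 ± 0.27) and Cpt1b (-1.18 ± 0.19) were the lowest. Without control animal 2 the count of the 27 was 5.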

How the data were processed

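Per the labels, RNA of 12 rat livers was isolated on Qiagen columns and hybridised as biotin-labelled target. Each value in the deposited table is a probe set's intensity on a linear scale, computed by the authors with MAS5 per the submitters' processing notes (version not given in the sources used here), without detection calls. The trimmed mean of every array lay at 100.0 to 100.1, so values were used as deposited. Symbols came from the platform annotation and were updated through the RefSeq gene table: 20826 of 31042 probe sets had 1 symbol, 436 several and 9780 none. Probe sets with a mean signal of at least 19.67 were kept (15523), the brightest stood for each gene (9300 genes), and log2(signal + 16) was modelled by limma 3.58.1 (R 4.3.3; lmFit and eBayes with trend, 4 group means, 8 residual and 5.84 prior degrees of freedom). P-values are two-sided, adjusted by Benjamini-Hochberg over all 9300 genes, with a threshold of 0.05. The median standard error of a germ-free fold change was 0.144, and the number of arrays limits precision. The fit was tested on simulated data in which 200 of 9300 genes changed. Log2 changes of 0.5 were recovered for 49.3% of such genes in the germ-free comparison and 38.8% in the antibiotic one. Changes of 1 were recovered for 98.5% and 100%. In the data 1226 genes passed in the germ-free comparison and 2 in the antibiotic one. The adjusted p depends on how many genes change, so these shares need not hold for the data. With 2 genes passing after dosing, the simulation cannot tell how many changes that comparison missed. The 10 genes and all lists were chosen with earlier results of these data known. Every one of the 10 is named; listed genes are named where they passed or regulate the pathway, and other names were chosen after their values were seen. Alternatives were offsets of 1 and 64, no signal minimum and a 75th percentile minimum, quantile normalization, median centring, each strain's own 6 arrays, a robust prior, no variance trend, averaged probe sets per gene, all probe sets fitted singly, and omission of each animal. A fit with the actin ratio as covariate was chosen after seeing the data.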

Additional observations from a re-analysis of the deposited data

Results flagged for a closer look

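For 5 of the 10 genes the change in germ-free livers differed from that in antibiotic-dosed livers by limma's test of the difference itself. Of all genes tested, 5.94% passed, 3.25% lower and 2.69% higher. On the log2 scale the germ-free change minus the antibiotic change was -1.26 for Cpt1a, -1.005 for Slc25a20, -1.001 for Cpt2, -0.75 for Hadhb and -0.66 for Decr1. Each is lower in germ-free livers relative to conventional ones than in dosed livers relative to controls. Strain and experiment differ between the comparisons and cannot be told apart from the treatments.

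The same test passed for 9 of the 27 other pathway genes tested, all lower, where 3.25% of all genes passed in that direction. Those that handle carnitine were Crat (-2.02), Slc22a5 (-1.53) and Cpt1b (-1.18), the last of them dim. Enzymes of the spiral were Acad11 (-1.78), Ech1 (-1.31), Eci1 (-1.08), Acaa2 (-0.84) and Hsd17b10 (-0.59), and the ketone body gene was Acat1 (-0.83). Of the 13 regulators tested, Fgf21 (-1.595) and Mlycd (-0.915) passed, and of the 18 other mitochondrial genes tested, Cs (-1.05).

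Among these 12 listed genes, Crat, Slc22a5, Cpt1b, Acad11 and Mlycd passed in every alternative in which they were tested. Eci1 lost its call with the actin covariate only, and Ech1 with that covariate and without control animal 2 (adjusted p = 0.0534 by limma). Acaa2 lost its call in 14 of 23 alternatives, Hsd17b10 in 13, Acat1 in 10, Cs in 8 and Fgf21 in 7 of 22. Groups of 3 animals were too small to test for an outlying animal.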

How the results depend on the processing

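Over 30 results, the 10 genes in each of 3 contrasts, and up to 24 alternatives there were 710 values, of which 675 kept their direction and side of the threshold; 22 lost a call, 1 gained one and 12 changed sign. In germ-free livers the Acadm value became -0.044 under quantile normalization, -0.089 under median centring, -0.019 without germ-free animal 4 and -0.021 without conventional animal 6 (-0.021 to 0.073 over all left-out animals). After dosing, Acadvl became 0.005 without control animal 1 and 0.009 without antibiotic animal 14 (-0.067 to 0.009), and Acadm -0.054 under quantile normalization. For the difference, Acadm became 0.01 under quantile normalization, and Acads 0.051 without germ-free animal 3, 0.019 without conventional animal 6 or antibiotic animal 13 (-0.221 to 0.051) and 0.029 with the actin covariate. That covariate, chosen after seeing the data, gave 623 genes in the germ-free comparison and 276 for the difference, 5 other pathway genes that fell in germ-free livers, and 3 of the 10 genes and 4 other pathway genes for the difference. Genes that passed after dosing numbered 1 with an offset of 1, 4 with no signal minimum, 0 with the 75th percentile minimum and 6 with a robust prior. Leaving out each animal gave 654 to 1236 genes for germ-free livers, 0 to 10 after dosing and 296 to 600 for the difference. Of the 10 genes it left 3 to 4 that fell in germ-free livers, 0 after dosing and 3 to 5 for the difference, and of the other pathway genes 9 to 12, 0 and 5 to 10 (and 0 to 1 higher for the difference). The causes of these changes were not tested. The 6-array fit gives no value for the difference. Signals near 19.67, as of Ppara, Cpt1b and Fgf21, limit those genes. No paired analysis was possible because the groups compared share no animal number that pairs them: germ-free animals 1, 3 and 4 face conventional animals 6, 7 and 8, and control animals 1, 2 and 3 face antibiotic animals 13, 14 and 15.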

Other observations

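Genes around the pathway whose values differed widely between animals of a group are given here, chosen after their values were seen. Pdk4, the kinase that holds back pyruvate oxidation and is known to rise in fasting, had signals of 381, 172 and 895 in conventional animals 6, 7 and 8 and 334, 249.7 and 328 in germ-free animals 1, 3 and 4. Conventional animals 7 and 8 lay below and above every germ-free animal, and the log2 value of -0.36 ± 0.45 did not pass (adjusted p = 0.642 by limma). In Han Wistar livers Pdk4 was 255, 336 and 438 in control animals 1, 2 and 3 and 507, 376 and 185 in antibiotic-dosed animals 13, 14 and 15. Cd36, a fatty acid translocase, had signals of 83.3, 96.3 and 139 in germ-free and 240, 212 and 115 in conventional livers, where animal 8 lay within the germ-free range, and its value of -0.72 ± 0.35 did not pass (adjusted p = 0.205 by limma). Bdh1, the last enzyme of ketone body synthesis, had 845, 1201 and 1383 against 1228, 983 and 1271, so that germ-free animal 1 was the lowest and animal 4 the highest of the 6.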
